A study of Mus musculus with 6 samples.

Results

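The genes described here are 9 direct antiviral effectors of the interferon response: Mx1, Mx2, Rsad2 (viperin), Cmpk2, Samhd1, Bst2 (tetherin), Ifitm1, Ifitm2 and Ifitm3. They were taken by symbol from the mRNA table, in which each has 1 row, and are 9 of its 22298 genes. They were picked with the comparison of the groups in view, so their differences between the groups are given as a description and support nothing. The libraries hold RNA of GC-1spg, an immortalised mouse line that stands in for type B spermatogonia, grown in DMEM with 10% serum. In the si-NC group, 3 libraries, the cells received a control siRNA, and in the si-METTL3 group, 3 libraries, an siRNA against METTL3, the catalytic subunit of the N6-methyladenosine (m6A) writer of messenger RNA. All cells were transfected at 60% density and collected 48 h later. The labels print the same sequence for both siRNAs and tag the si-NC libraries as untreated. They do not say whether the replicates are separate cultures, so the spread between libraries may be technical.

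Type I interferon acts through the receptor IFNAR, JAK kinases and a transcription factor complex that contains IRF9 and binds the interferon-stimulated response element (ISRE) near its target genes. The proteins of these genes block viruses at separate steps. MX GTPases trap viral nucleocapsids, viperin makes a chain-terminating CTP analogue from nucleotides that CMPK2 can supply, and SAMHD1 breaks down deoxynucleotides. Tetherin holds budding virions at the cell surface, and the IFITM proteins hinder fusion in endosomal and plasma membranes.

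The 9 genes lie in 5 places of the genome (positions from GENCODE M21, GRCm38). Mx1 (16, 97447035 to 97462907, minus strand) and Mx2 (16, 97535308 to 97560900, plus strand) face away from each other on chromosome 16, 72401 bases apart from start to start. Rsad2 (12, 26442746 to 26456452, minus) and Cmpk2 (12, 26469204 to 26479837, plus) are likewise divergent neighbours, 12752 bases apart. Chromosome 7 holds Ifitm2 (140954837 to 140955987, minus), Ifitm1 (140967221 to 140969825, plus) and Ifitm3 (141009586 to 141010770, minus). Bst2 is on chromosome 8 (71534255 to 71537456, minus) and Samhd1 on chromosome 2 (157097533 to 157135265, minus).

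RefSeq promoter windows of 300 bases, 250 before and 50 after the start (GRCm38.p6), were found for 7 of the 9 genes, all but Mx1 and Mx2. The ISRE core was searched as GAAA, any 2 bases and GAAA on both strands, and the interferon gamma-activated sequence (GAS) as TTCNNNGAA, which reads alike on both strands. An ISRE core was present in 4 of the 7 windows and in 3.44% of all 32851 windows, and a GAS in 3 and in 8.30%. Windows of 5 genes are printed 5′ to 3′ in the direction of the gene, with the ISRE core in capitals. They are 3 of genes with a core and large differences between the groups, and the 2 other Ifitm genes for contrast. Cmpk2 differed more than any of these (log2 fold change -3.96, si-METTL3 over si-NC), but its window held no core and is not printed.
Rsad2 promoter window, chr12:26456403-26456702, minus strand: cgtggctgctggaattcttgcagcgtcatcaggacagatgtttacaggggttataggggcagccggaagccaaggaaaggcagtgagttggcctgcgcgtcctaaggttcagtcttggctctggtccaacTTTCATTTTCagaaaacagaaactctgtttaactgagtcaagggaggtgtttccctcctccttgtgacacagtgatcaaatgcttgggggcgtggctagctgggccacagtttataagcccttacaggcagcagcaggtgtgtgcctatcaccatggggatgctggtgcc
Bst2 promoter window, chr8:71537423-71537722, minus strand: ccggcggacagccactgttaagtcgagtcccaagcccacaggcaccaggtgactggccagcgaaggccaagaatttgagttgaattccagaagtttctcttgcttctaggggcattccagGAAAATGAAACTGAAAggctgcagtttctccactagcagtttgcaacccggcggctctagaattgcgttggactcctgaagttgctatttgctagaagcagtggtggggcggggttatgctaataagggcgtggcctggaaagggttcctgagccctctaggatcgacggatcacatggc
Ifitm3 promoter window, chr7:141010695-141010994, minus strand: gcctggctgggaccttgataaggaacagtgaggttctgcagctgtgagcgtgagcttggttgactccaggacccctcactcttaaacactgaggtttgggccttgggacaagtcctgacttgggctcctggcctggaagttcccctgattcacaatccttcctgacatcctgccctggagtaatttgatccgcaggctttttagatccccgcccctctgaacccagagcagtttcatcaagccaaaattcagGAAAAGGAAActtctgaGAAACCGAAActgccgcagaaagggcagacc
Ifitm2 promoter window, chr7:140955912-140956211, minus strand: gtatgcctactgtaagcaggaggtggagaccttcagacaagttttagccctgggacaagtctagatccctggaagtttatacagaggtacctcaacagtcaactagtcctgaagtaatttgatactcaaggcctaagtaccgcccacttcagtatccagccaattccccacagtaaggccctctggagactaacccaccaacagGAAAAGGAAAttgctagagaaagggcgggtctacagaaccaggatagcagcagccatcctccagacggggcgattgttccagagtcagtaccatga
Ifitm1 promoter window, chr7:140967826-140968125, plus strand: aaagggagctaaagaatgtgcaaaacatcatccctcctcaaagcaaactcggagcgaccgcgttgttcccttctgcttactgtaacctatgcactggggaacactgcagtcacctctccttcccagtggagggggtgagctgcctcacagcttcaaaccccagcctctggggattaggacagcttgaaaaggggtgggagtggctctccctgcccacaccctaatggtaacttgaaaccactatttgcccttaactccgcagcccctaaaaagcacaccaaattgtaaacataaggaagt

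In Rsad2 the core stood on the reverse strand, 120 to 111 bases before the start, where its letters on that strand were GAAAATGAAA. Bst2 had a pair of overlapping cores, GAAAATGAAA and GAAACTGAAA, from 130 to 115 bases before the start, and a GAS that overlapped the first of them. Ifitm3 held GAAAAGGAAA and GAAACCGAAA at 3 to 12 and 20 to 29 bases after its RefSeq start, with a GAS between them that ran into the second; GENCODE places the gene's start further upstream. At least 2 cores, as in Bst2 and Ifitm3, were found in 0.225% of all windows. Ifitm2 held 1 core, the same 10 letters as the first of Ifitm3, 46 to 37 bases before its start. The windows of Cmpk2 and Ifitm1 held neither motif and that of Samhd1 a GAS alone, which says only that these letters are not in those 300 bases. The window of Ifitm1, 140967826 to 140968125, lies inside the gene as GENCODE places it, 140967221 to 140969825.

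**Figure D1:**
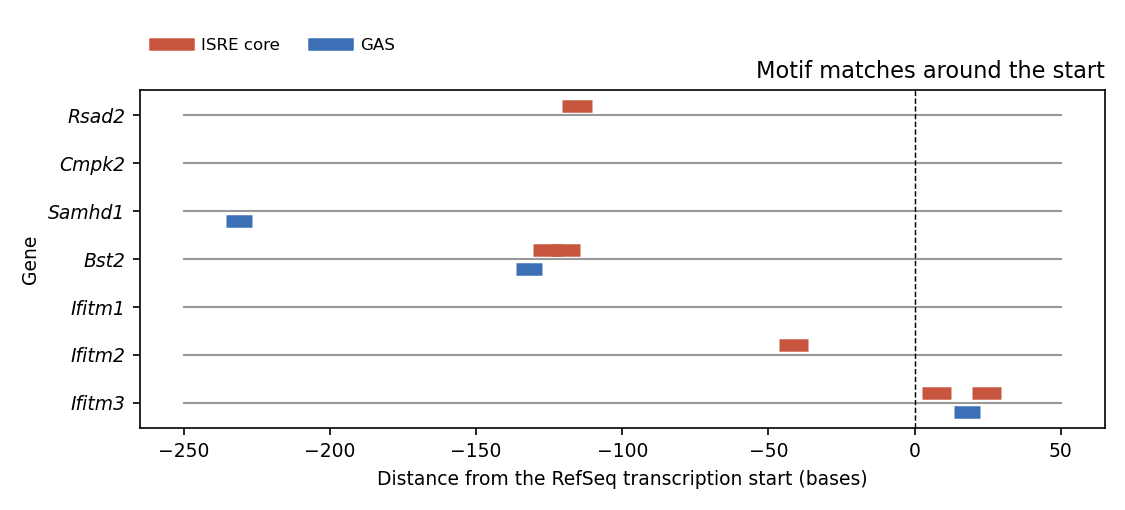
Matches to the ISRE core (red) and GAS (blue) in the 7 RefSeq windows, by distance in bases from the annotated start (dashed line). Red marks appear in Rsad2, Bst2, Ifitm2 and Ifitm3, with a pair of them in Bst2 and in Ifitm3.

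The mRNA table summed to between 22146057 and 37698956 counts per library. Levels of 1 gene across libraries are given in CPM, counts scaled to the effective library size, and levels of different genes in the deposited FPKM, which is also scaled to length. Mettl3 itself was at 18.3 ± 0.974 CPM in si-NC and 5.31 ± 0.785 in si-METTL3 (SD, n = 3). The 11 germ cell markers summed to 40.6 to 49.3 CPM, here scaled to the table's total, mostly from Uchl1 (865 to 1516 counts) and Gfra1 (78 to 140), while Ddx4 had 1 to 7 counts and Sall4 and Sohlh1 had 0 in every library. The 8 Sertoli and fibroblast markers summed to 2517 to 2880 CPM, mostly from Col1a1 and Vim. At an edgeR adjusted p under 0.05, 1 of the 5 germ cell markers tested was higher in si-METTL3. Of these 8 markers 2 were higher and 1 lower, beside 18.9% of all genes tested in either direction. In the same list Wt1 had 4837 to 7693 counts, Sox9 547 to 834 and Amh 148 to 273. Cldn11 of Sertoli cell junctions had 0 to 12 counts. Markers of other tissues were uneven. The 16 lung markers, none of them at 0 throughout, summed to 11.7 CPM in the first si-NC library, 10.4 in the second and 74.2 in the third, and to 74.9 to 112 in si-METTL3. The 12 macrophage and leukocyte markers summed to 0.952 to 13.8 CPM in si-NC and 14.9 to 23.2 CPM in si-METTL3. In si-NC replicate 3 and in si-METTL3 this came mostly from Lyz2 (302 to 576 counts), while Ptprc had 0 to 14 counts over all libraries. Both sums were far lower in si-NC replicates 1 and 2 than in si-NC replicate 3, which lay just under the si-METTL3 range. None of the 14 lung and 5 macrophage and leukocyte markers tested was under an edgeR adjusted p of 0.05. The part of this RNA in the results was not tested. Without si-NC replicate 3 the log2 fold changes, si-METTL3 over si-NC, were -3.44 for Mx1, -4.14 for Mx2, -3.62 for Rsad2 and -3.91 for Cmpk2. In that fit they were -0.65 for Samhd1, -2.52 for Bst2, -0.22 for Ifitm2 and -2.33 for Ifitm3. The si-NC libraries left in it have the lowest sums of both marker lists, so that fit cannot tell RNA of other tissues and the siRNA apart. In si-NC replicate 3 and si-METTL3 replicate 3 the lung sums were 74.2 and 74.9 CPM, and the leukocyte sums 13.8 and 14.9. In these libraries Mx2 was at 126 and 5.92 CPM, Ifitm3 at 456 and 71.5, Samhd1 at 192 and 119 and Ifitm2 at 135 and 99.3. A comparison matched on these sums was not tested.

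Of the 9 effector genes, 8 had enough counts to be tested, and Ifitm1 did not. All 8 were lower in si-METTL3, with no overlap between the libraries of the groups. By edgeR's quasi-likelihood test 7 were under an adjusted p of 0.05, all but Ifitm2. Across the 13082 genes tested, 18.9% were under that threshold, 10.2% lower and 8.67% higher, and 21.3% were lower and 20.2% higher without overlap. Since the genes were chosen on this contrast, nothing is read from their counts. Sizes differed widely among the 8. Mx2, Cmpk2, Rsad2 and Mx1 were more than 10-fold lower. Bst2 and Ifitm3 were 6.17-fold and 5.30-fold lower, and Samhd1 and Ifitm2 less than 2-fold. Their median log2 fold change was -3.03, against 0.03 for all genes tested, and Mx1 passed the filter on low counts only through its si-NC libraries. In bulk RNA, fewer cells with a transcript and less of it per cell cannot be told apart. The split of all calls over the table was 1134 higher and 1334 lower, and 429 and 796 with the length correction and the replicate block.

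**Figure D2:**
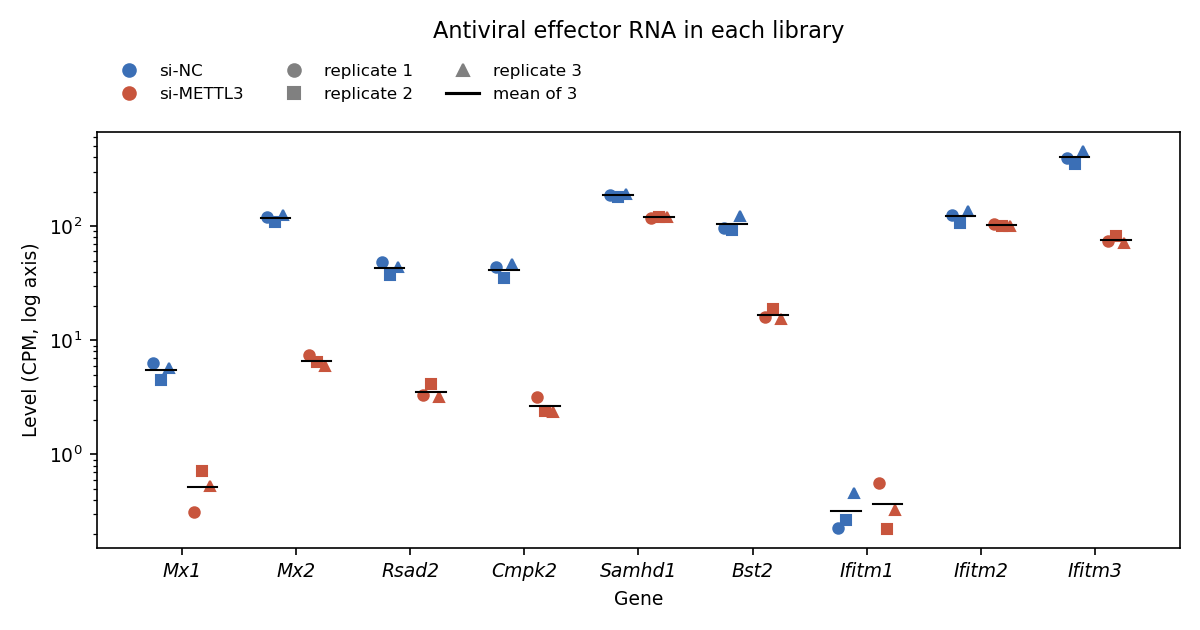
Level of each effector gene in every library, in CPM on a log axis; blue marks si-NC, red si-METTL3, shapes the replicates, and black bars the mean of 3. All si-METTL3 points lie below all si-NC points for every gene but Ifitm1, whose groups overlap.

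The MX genes encode dynamin-like GTPases, and in many inbred strains of laboratory mice both carry mutations that prevent a full-length protein. Mx2 was at 120, 110 and 126 CPM in the si-NC libraries and at 7.45, 6.42 and 5.92 in si-METTL3. Every si-METTL3 library thus lay far under every si-NC library: the lowest of si-NC was 14.7 times the highest of si-METTL3. Its log2 fold change was -4.17 (SE 0.12), which left 5.55% of the si-NC level. Mx1 was much scarcer, with 221, 135 and 210 counts across si-NC against 10, 16 and 13 across si-METTL3. At 5.50 ± 0.931 and 0.518 ± 0.20 CPM (SD, n = 3) the log2 fold change was -3.44, and its SE of 0.31 was the largest among the 8 genes. Per length, Mx2 exceeded Mx1 in every library, by 13.4, 15.2 and 14.6 times in FPKM among the controls and by 10.3, 8.11 and 12.0 times after METTL3 siRNA. The length of Mx1 implied by its counts and FPKM ranged from 1131 to 2690 bases between libraries, against 2517 to 2725 for Mx2, so FPKM ratios with Mx1 carry that uncertainty. The annotated transcripts overlap little: 4.77% of the 50-base stretches of Mx1 and 6.71% of those of Mx2 also occur in the other gene.

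Rsad2 encodes the radical SAM enzyme viperin, and Cmpk2 next to it a mitochondrial nucleotide monophosphate kinase. Rsad2 was at 48.7, 37.1 and 44.1 CPM in the control libraries, against 3.32, 4.14 and 3.20 in the si-METTL3 libraries. Cmpk2 was at 43.9, 35.0 and 46.2 CPM across si-NC, against 3.19, 2.41 and 2.35 across si-METTL3. Both were lowest of si-NC in replicate 2, as were all the effector genes but Ifitm1, and the lowest si-NC library stood at 8.96 times the highest si-METTL3 library for Rsad2 and 11.0 times for Cmpk2. The log2 fold changes were -3.61 (SE 0.16) for Rsad2 and -3.96 (SE 0.18) for Cmpk2. In FPKM Cmpk2 stood at 1.09, 1.12 and 1.25 times Rsad2 across si-NC and at 1.15, 0.697 and 0.870 times across si-METTL3, so their order varied only among the si-METTL3 libraries. No 50-base stretch of either transcript was found in another annotated gene, which also held for Bst2.

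Samhd1, the deoxynucleotide triphosphohydrolase, differed least of the 8 tested genes after Ifitm2. Its libraries lay close together, at 189, 178 and 192 CPM across si-NC and 118, 121 and 119 across si-METTL3. The si-METTL3 mean was 64.0% of the si-NC mean (log2 fold change -0.64, SE 0.06), and the groups did not overlap. This was the smallest SE among the 8 genes.

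Bst2 encodes tetherin, a membrane protein anchored at both ends. It was at 96.7, 92.7 and 122 CPM across si-NC and 16.1, 18.9 and 15.4 across si-METTL3, which gave a log2 fold change of -2.63 (SE 0.14). The si-NC libraries differed among themselves by up to 1.32 times, far less than the 4.89 times between the lowest of si-NC and the highest of si-METTL3.

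The 3 Ifitm genes encode small membrane proteins of 1 family and did not behave alike. Ifitm3, best known for restricting influenza virus in endosomes, was at 396, 350 and 456 CPM across si-NC, against 73.4, 82.0 and 71.5 across si-METTL3. Its groups were well apart, with a log2 fold change of -2.41 (SE 0.12) and 18.9% of the si-NC level left. Ifitm2 was at 125, 107 and 135 CPM across si-NC and 105, 101 and 99.3 across si-METTL3. Its groups did not overlap but nearly touched, the lowest si-NC library being 1.02 times the highest si-METTL3 library, and its log2 fold change of -0.27 (SE 0.09) did not pass the threshold (edgeR adjusted p = 0.0885). Without si-NC replicate 2 the value was -0.36 and passed (edgeR adjusted p = 0.00814; the largest without any other library was 0.237). With each library corrected for its trend on transcript length, the value was -0.07. That trend differed between the groups: for each doubling of length, log2 levels moved by -0.12, 0.02 and -0.14 across si-NC and by 0.04, 0.08 and 0.11 across si-METTL3, and the Ifitm transcripts are short.

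Ifitm1 was close to the limit of detection, with 8, 8 and 17 counts across si-NC and 18, 5 and 8 across si-METTL3. The groups overlapped, at 0.319 ± 0.126 and 0.370 ± 0.175 CPM (SD, n = 3), and a difference was not detectable at this depth. In edgeR without a filter its log2 fold change was 0.22 (adjusted p = 0.817). Reads of the Ifitm genes are not all distinct. In the annotated Ifitm2 transcript 48.5% of the 50-base stretches, and 42.0% of the 75-base stretches, also occur in transcripts of other genes, foremost the predicted gene Gm45717, so its own level is uncertain. For Ifitm3 the shares were 10.0% and 0.662%, and for Ifitm1 6.36% and 0.743%. The sources used here do not say how the counting divided such reads.

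**Figure D3:**
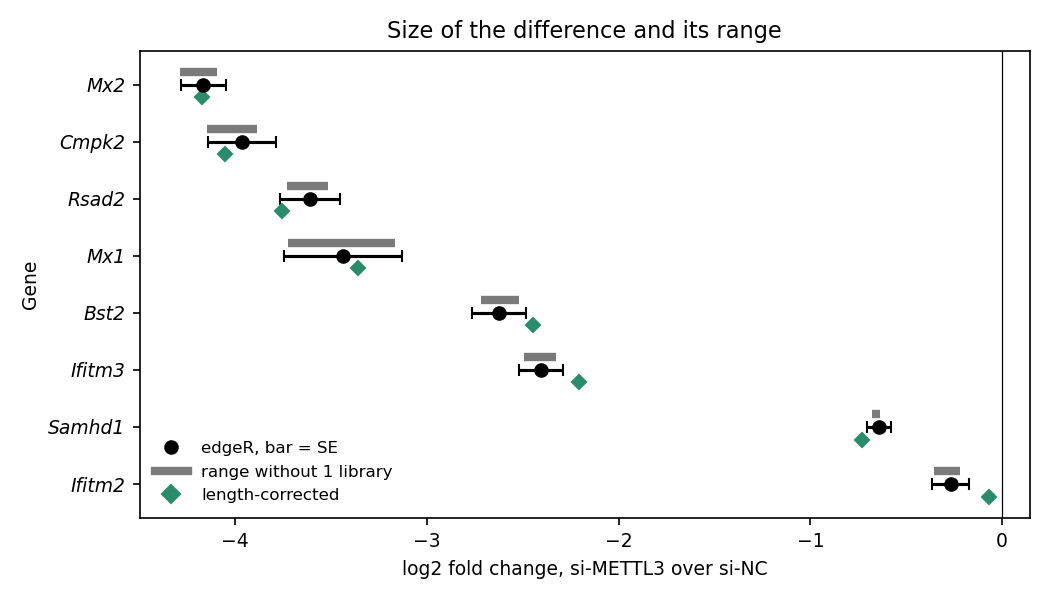
Log2 fold change of the 8 tested genes, si-METTL3 over si-NC, with SE bars (black), the range when any 1 library was left out (grey) and the value after the length correction (green). Values run from -4.17 for Mx2 to -0.27 for Ifitm2, and only Ifitm2 came near 0, after the length correction.

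The order of the genes by FPKM differed between the groups. In si-NC it ran Ifitm3 (483 ± 57.7 FPKM; SD, n = 3), Ifitm2 (153 ± 15.3), Bst2 (107 ± 15.1), Samhd1 (50.3 ± 1.19), Mx2 (41.9 ± 1.68), Cmpk2 (10.8 ± 1.42), Rsad2 (9.32 ± 1.17), Mx1 (2.92 ± 0.254) and Ifitm1 (0.420 ± 0.171). Of the neighbours in this order only Cmpk2 and Rsad2 overlapped in their libraries. In si-METTL3 Ifitm2 came first (128 ± 5.35 FPKM; SD, n = 3), before Ifitm3 (92.4 ± 7.12), Samhd1 (31.9 ± 0.822), Bst2 (17.6 ± 1.99) and Mx2 (2.34 ± 0.286). Rsad2 (0.770 ± 0.106), Cmpk2 (0.687 ± 0.133) and Ifitm1 (0.490 ± 0.171) overlapped with their neighbours, and Mx1 (0.237 ± 0.0493) was last. Ifitm3 and Ifitm2 thus changed places, as did Bst2 and Samhd1 and, at low levels, Mx1 and Ifitm1. Cmpk2 and Rsad2 changed places by their means only, as their libraries overlapped in both groups. Ifitm3 stood at 3.06, 3.15 and 3.27 times Ifitm2 across si-NC and at 0.677, 0.788 and 0.696 times across si-METTL3. The place of Ifitm2 and the ratios with it carry the uncertainty of its level given above for its shared stretches. Bst2 stood at 1.93, 1.98 and 2.47 times Samhd1 across si-NC and at 0.532, 0.607 and 0.513 times across si-METTL3. Among all 22298 genes of the table, Ifitm3 was above 99.5% in si-NC and 96.7% in si-METTL3, while Mx2 was above 91.1% and 56.6%.

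**Figure D4:**
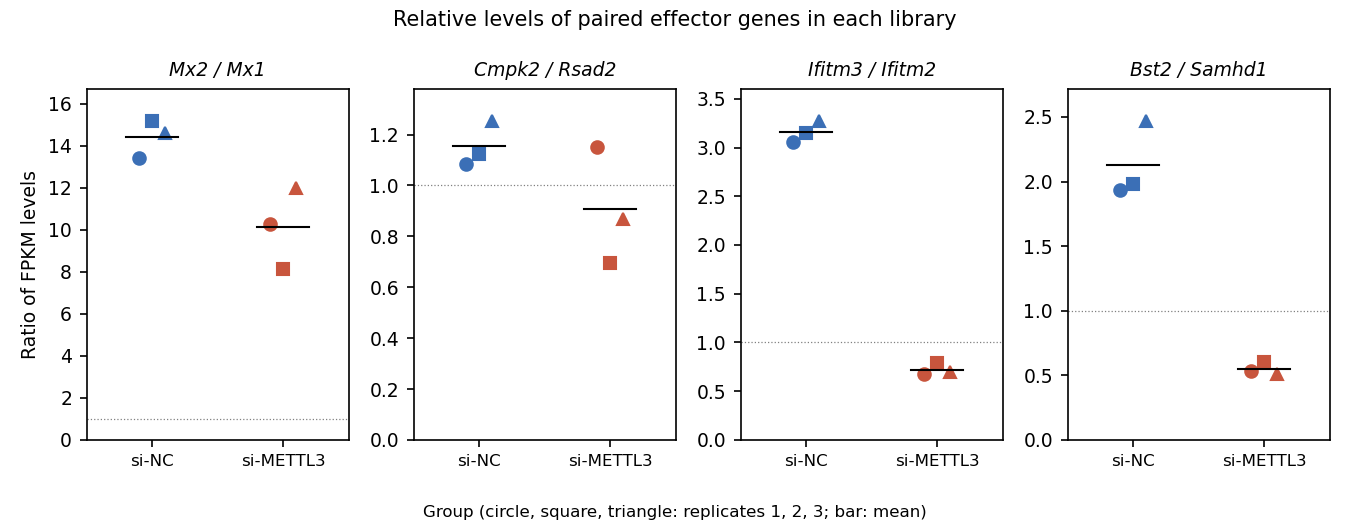
Ratio of FPKM levels for Mx2 over Mx1, Cmpk2 over Rsad2, Ifitm3 over Ifitm2 and Bst2 over Samhd1 in each library; colours mark the groups, shapes the replicates, black bars the mean of 3 and the dotted line a ratio of 1. The last of these pairs and Ifitm3 over Ifitm2 lie above 1 in si-NC and below 1 in si-METTL3 in every library.

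Likeness between genes was measured as the root mean square difference between their log2 CPM profiles over the 6 libraries, each centred on its mean, and is a description that the difference between the groups dominates. Within the set Bst2 and Ifitm3 were the closest pair (0.12), followed by Mx2 and Cmpk2 (0.14), Samhd1 and Ifitm2 (0.20) and Mx1 and Rsad2 (0.28). The farthest were Mx2 and Ifitm2 (1.95). Other tested genes were ranked if they had a mean of at least 5 CPM and no predicted or clone-type name. The 2 nearest were, for Mx2, Oas1a (0.18) and Oas3 (0.18), which encode oligoadenylate synthetases. For Cmpk2 they were Oas3 (0.10) and Oas1a (0.26), for Rsad2 Rtp4 (0.15) and Oasl2 (0.17), and for Mx1 Irf7 (0.26) and Xaf1 (0.28). Bst2 lay next to Ly6e (0.06) and Apol9a (0.09), and Ifitm3 next to the chemokine gene Ccl5 (0.12) and Ly6e (0.13). Samhd1 lay next to Bicd2 (0.03) and Myc (0.04), and Ifitm2 next to Tmem109 (0.01) and Anxa2 (0.02).

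Upstream of the effectors, 7 of 12 genes of interferon signalling fell and none rose (median log2 fold change -0.97), beside 10.2% lower and 8.67% higher among all genes tested. An unadjusted p under 0.05 was found for 9 of the 12 and for 4670 of all 13082. Usp18, the ISG15 protease that restrains the receptor, was at -4.55 (SE 0.17) and Irf9 at -1.58 (SE 0.10). The receptor and kinase genes did not pass: Ifnar1 was at 0.12 (SE 0.08), Ifnar2 at -0.25 (SE 0.10), Jak1 at 0.22 (SE 0.08) and Tyk2 at 0.17 (SE 0.14). None of 21 interferon genes had enough counts to be tested, 15 having 0 in every library, and Ifnb1 had the most, 15, 6 and 12 across si-NC and 6, 4 and 3 across si-METTL3. In a list of 35 other antiviral effectors 26 fell and 1 rose, with a median of -1.81, read beside the same 10.2% and 8.67%. Oas3 was at -3.80 (SE 0.14), the immunity-related GTPase gene Irgm1 at -2.03 (SE 0.07) and Oasl2 at -3.43 (SE 0.14). Zc3hav1, which encodes the zinc finger antiviral protein ZAP, was at -0.56 (SE 0.07), a size near that of Samhd1. Serinc5, a restriction factor of retroviral particles, was the gene that rose (0.48, SE 0.09). Both lists were drawn up with earlier results of these data known.

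Relatives by protein family or chemistry were read against the 18.9% of all genes tested that passed. Of 7 genes of the dynamin family, which shares its GTPase fold with MX, 2 rose and none fell (median log2 fold change 0.35): Dnm1 (0.62, SE 0.10) and the mitofusin gene Mfn1 (0.43, SE 0.08). Mfn2 was at -0.20 (SE 0.07) and did not pass. The count of 2 became 1 when si-NC replicate 1 or si-METTL3 replicate 1 or 3 was left out, 0 without si-METTL3 replicate 2 and 6 without si-NC replicate 2. Of 11 dispanin relatives of IFITM and their partner Zmpste24, 4 were tested (median 0.13) and none passed with edgeR or DESeq2 (1 at an unadjusted p under 0.05). Ifitm5 (0.30), Ifitm10 (-0.30), Prrt2 (0.65) and Zmpste24 (-0.04) were those tested, Ifitm7 had 0 counts in every library, and 1 gene passed without si-NC replicate 2.

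Among 16 genes of deoxynucleotide synthesis and nucleotide kinases, the pathways that SAMHD1 and CMPK2 act in, 2 rose and 1 fell (median -0.04), a share close to the 18.9% of all genes. Dck, the deoxycytidine kinase gene, was at 0.44 (SE 0.08), Tyms, the thymidylate synthase gene, at 0.24 (SE 0.06) and Nme2, a nucleoside diphosphate kinase gene, at -0.33 (SE 0.09). The count of 3 became 0 when si-NC replicate 1 or si-METTL3 replicate 1 or 3 was left out, 1 without si-NC replicate 3 or si-METTL3 replicate 2 and 6 without si-NC replicate 2. None of 12 radical SAM enzyme genes and factors of cytosolic iron-sulfur assembly, which viperin depends on, passed with edgeR or DESeq2 (3 at an unadjusted p under 0.05, 1 with limma on log2(FPKM + 1), 3 without si-NC replicate 2), and the median was -0.06. Lias (-0.32, SE 0.10), Tyw1 (-0.24, SE 0.08), Mocs1 (0.27, SE 0.10) and Ciao1 (-0.14, SE 0.06) had the smallest p-values or the highest mean CPM.

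**Figure D5:**
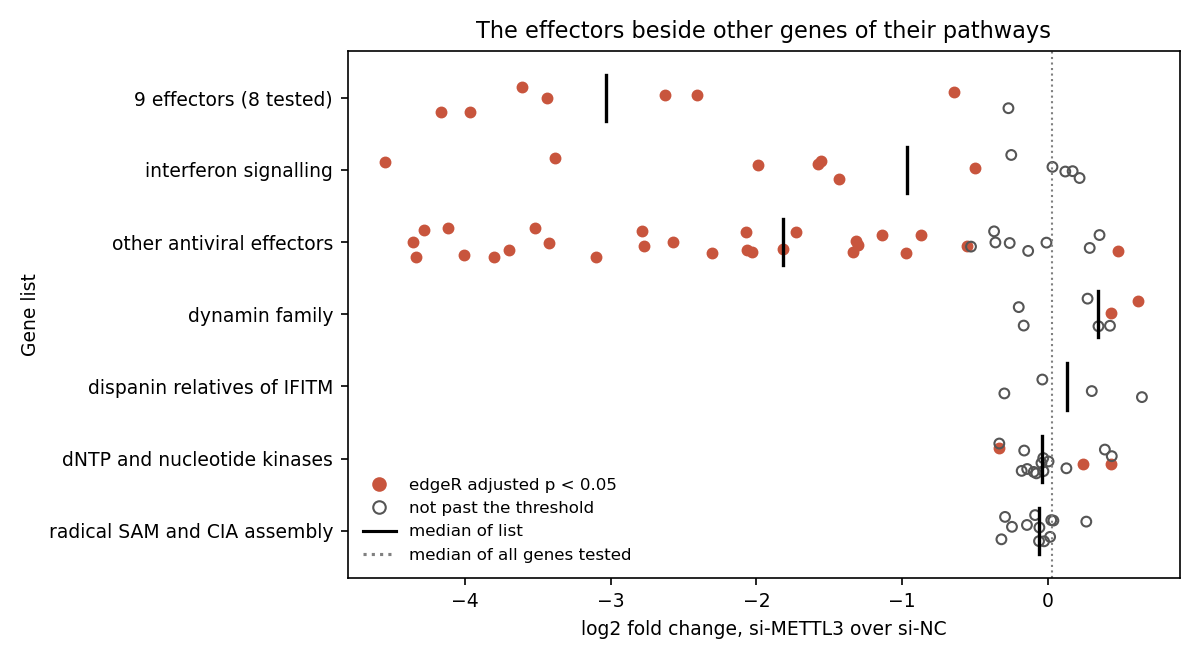
Log2 fold change, si-METTL3 over si-NC, of the 8 tested effectors and of the tested genes of 6 further lists; filled red points were under an edgeR adjusted p of 0.05, black bars are list medians and the dotted line the median of all genes tested. The effectors, interferon signalling and other antiviral effectors extend below -3, whereas the points of the other lists lie between -0.33 and 0.65.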

How the data were processed

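RNA of 6 libraries was measured, 3 per group, as labelled in the sample titles. Per the file headers, the authors deposited counts and FPKM values per library for genes (mRNA table) and transcripts (lncRNA table), with their group means, log2 fold changes and p-values, which were not used here. The submitters' processing notes name fastp, Bowtie2, StringTie, RSEM and build mm9, without roles. The deposited counts were whole numbers.

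The main test was run on the counts in R 4.3.3 with edgeR 4.0.16 (TMM, filterByExpr, quasi-likelihood fit of the group, Benjamini-Hochberg, threshold 0.05), and the steps were tested on simulated data. SE is the log2 fold change over the square root of F. Marker sums are CPM over the mRNA table's total. DESeq2 1.42.0, limma 3.58.1 on log2(FPKM + 1) or log2(FPKM + 0.1), with FPKM of at least 1 in 3 libraries or no filter, other scaling, no count filter, the replicate block, a length correction by a lowess of each library on length, and leaving out each library were the alternatives. The named genes were all 9 effectors, Mettl3, the 2 nearest profiles of each tested effector, and from each list the 3 smallest adjusted p and the highest mean CPM, less items that are not reported here; others serve to spell out small counts or roles and were chosen after their values were seen. Promoter windows came from RefSeq (GRCm38.p6), and positions and transcripts from GENCODE M21 (GRCm38); no coordinate was converted. Genes and lists were chosen with earlier results of these data known.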

Additional observations from a re-analysis of the deposited data

How the results depend on the processing

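Of the recomputed log2 fold changes of the effectors and Mettl3, 134 of 135 kept their direction and their side of the threshold, and that of Ifitm2 passed it without si-NC replicate 2. The number of effectors called was 7 in each of the 9 alternatives that kept all libraries, and 7 to 8 when 1 library was left out. On the log2(FPKM + 1) scale, which shrinks low genes, Mx1 was at -1.66, Rsad2 at -2.54 and Cmpk2 at -2.80. Counts over all genes moved more. With the replicate block 1273 genes were called, 710 of them lower, and with the block and the length correction 1225 and 796. Leaving out 1 library gave 665 to 4917 calls, 350 to 2527 of them lower. For the dynamin family the block with the length correction gave 0 calls, and leaving out a library 0 to 6. For deoxynucleotide and kinase genes the block gave 1, the block with the length correction 0, and limma on log2(FPKM + 1) with no filter 1, while leaving out a library gave 0 to 6. The radical SAM and assembly list had 1 call with limma on log2(FPKM + 1) and 1 with log2(FPKM + 0.1), and 0 to 3 without a library; the dispanin list had 0 to 1. Same-numbered libraries deviated from their group means with correlations of 0.07, 0.20 and -0.31, and 1 of 6 libraries correlated best with its own number. No pairing was seen, but with 3 libraries per group these values cannot settle whether same-numbered libraries share a culture or day. At 5 to 18 counts per library the depth limits what can be said of Ifitm1.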

Other observations

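The lncRNA table listed 8 transcripts that GENCODE M21 assigns to 5 of the effector genes. The 4 transcripts of Mx1 summed to 94, 97 and 150 counts across si-NC and 6, 16 and 0 across si-METTL3. Of these, 2 are annotated as targets of nonsense-mediated decay and ENSMUST00000142883 as protein-coding. The transcript of Mx2, ENSMUST00000190097, was counted 43, 54 and 34 times across si-NC and 2, 0 and 3 times across si-METTL3. Both were lower in every si-METTL3 library, as in the mRNA table. The single transcripts of Cmpk2, Bst2 and Rsad2 had at most 3 counts in any library. The sources used here do not say whether the mRNA table counts the same reads.

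The m6A writer acts on a short consensus whose most common form in RNA corresponds to GGACT in DNA letters. The longest protein-coding transcripts of Cmpk2 and Rsad2 held 7 matches each, that of Samhd1 5, and those of Bst2 and Ifitm1 2 each. Those of Mx1, Mx2, Ifitm2 and Ifitm3 held none, whereas 87.6% of 21901 protein-coding genes held at least 1, with a median of 3. Mx1 is 3385 bases long and Mx2 2417, against a median of 2680 over those genes, while Ifitm2 and Ifitm3 are 655 and 678 bases long. Genes without a match were found at both ends of the range of differences, Mx2 at -4.17 and Ifitm2 at -0.27 on the log2 scale. No modification was measured, and a match is a description of letters, not a methylated site. Other forms of the consensus were not searched, and a link between matches and the differences was not tested.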
